A study of Mus musculus with 8 samples.

Results

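Molecular chaperones and folding enzymes of mouse liver were described by the ribosome footprints on their coding sequences. The genes are those of the deposited table whose symbol starts with Hsp, Dnaj or Pdia, is Cct followed by a digit, or is Tcp1, P4hb, Canx or Ero1l. These are 56 of the 7500 genes with a line in the table. Ribosome profiling sequences the stretch of mRNA that a translating ribosome shields from nuclease. Footprints per length of coding sequence are taken here as a measure of the total translation of a gene. No mRNA level was used, so the amount of mRNA and the translation per mRNA are not separated. Livers came from male wild-type FVB/N mice fed, from weaning and for 6 weeks, a torula yeast-based diet either without added selenium (0 Se) or with 0.1 ppm selenium as sodium selenite (0.1 Se). The labels list 2 mice per diet and 2 libraries per mouse, 8 libraries in all, and they share strain, sex, tissue and base diet.

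The level used is the authors' mean abundance of a gene over all libraries, given as log2 CPM, where CPM is the number of footprints in every 1000000 counted. It joins both diets in 1 value, so the diets are not compared here, no value has an SD, and whether neighbours in an order of levels differ beyond the spread between mice cannot be said. The depth of the libraries is unknown from this column. Levels of different genes are compared per kilobase of counted coding sequence, written as CPM per kilobase.

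Newly made proteins fold with the help of chaperones, which bind exposed hydrophobic stretches and release them again, mostly at the cost of ATP. Hsp70 and Hsp90 proteins work in the cytosol and in the endoplasmic reticulum (ER), J proteins hand substrates to Hsp70 and start its ATP hydrolysis, and chaperonins enclose a folding chain in a barrel. Proteins that enter the ER for secretion also need disulfide bonds, which protein disulfide isomerases form and rearrange. The hepatocyte is a strongly secretory cell and the source of most plasma proteins.

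The liver label was checked first. Of 15 hepatocyte marker genes, 14 had a line and their median was 6222 CPM per kilobase, with albumin (Alb) at 51734. The 10 Kupffer cell markers with a line, the 9 endothelial and the 8 stellate cell or fibroblast markers had medians of 29.1, 22.1 and 11.2 CPM per kilobase, and the highest of each list were Clec4f, Clec4g and Dcn. No erythroid or lymphocyte marker of the lists had a line. A missing line gives no level, so this does not show that such cells were absent. The part of non-parenchymal cells in the chaperone levels was not tested, and in whole liver a low level cannot be told apart from strong translation in few cells.

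The genes were placed by where their proteins are known to reside, 17 in the ER, 28 in the cytosol or nucleus, 6 in mitochondria and 5 elsewhere or not assigned. As a whole they had high footprint levels. Their median was 69.8 CPM per kilobase, against 11.3 over all genes with a line, 43 of the 56 lay above that table median, and 18 of 56 (32.1%) were in its highest 10%, at or above 135 CPM per kilobase. Their authors' means sum to 19487 CPM, or 1.95% of all counted footprints. The ER genes held 48.8% of this sum, those of the cytosol or nucleus 45.1% and the mitochondrial ones 5.38%. Of the symbols placed by hand, 6 of 23 ER, 26 of 54 cytosolic or nuclear and 3 of 9 mitochondrial ones had no line. These include Hspa9, Cct4 and Cct5. A missing line gives no level, so such genes are absent from the sums and medians of each compartment, to an unequal degree.

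The ER genes had the highest median, 140 CPM per kilobase, followed by those of the cytosol or nucleus with 76.8 and the mitochondrial ones with 44.3. The groups differ in family make-up, as the 5 disulfide isomerases and Canx are all ER genes. Among J proteins the order was the other way, with medians of 33.9 in the ER and 50.5 in the cytosol or nucleus. The ER value joins J proteins of the ER membrane, all between 8.87 and 36.4, with 4 of the ER lumen. Of the lumenal ones, Dnajb9, Dnajb11 and Dnajc3 at 272, 140 and 113 were above 50.5 and Dnajc10 at 14.3 was below. The reversed order therefore depends on counting the membrane proteins. The only ER Hsp70 gene with a line, Hspa5, stood at 1123, as Hspa13 had none. The 6 cytosolic or nuclear Hsp70 genes had a median of 7.32 but ranged from 0.96 to 1956, with Hspa8 above Hspa5. That median includes Hspa1a and Hspa1b, whose low values are uncertain because most of their sequence is shared, as described below. For Hsp90 the ER gene stood at 710 and the 2 cytosolic genes had a median of 588. The highest 10% of the table held 9 of 17 ER genes, 7 of 28 cytosolic or nuclear and 2 of 6 mitochondrial ones. The 3 ranges overlapped almost entirely, from 8.87 to 1306 CPM per kilobase in the ER, from 0.96 to 1956 in the cytosol or nucleus and from 5.098 to 485 in mitochondria. When genes below a log2 CPM of 3 were left out, the mitochondrial median rested on 4 genes and exceeded both others, so the place of the mitochondrial group depends on the 2 genes with the fewest footprints, Dnajc30 and Dnajc4.

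**Figure D1:**
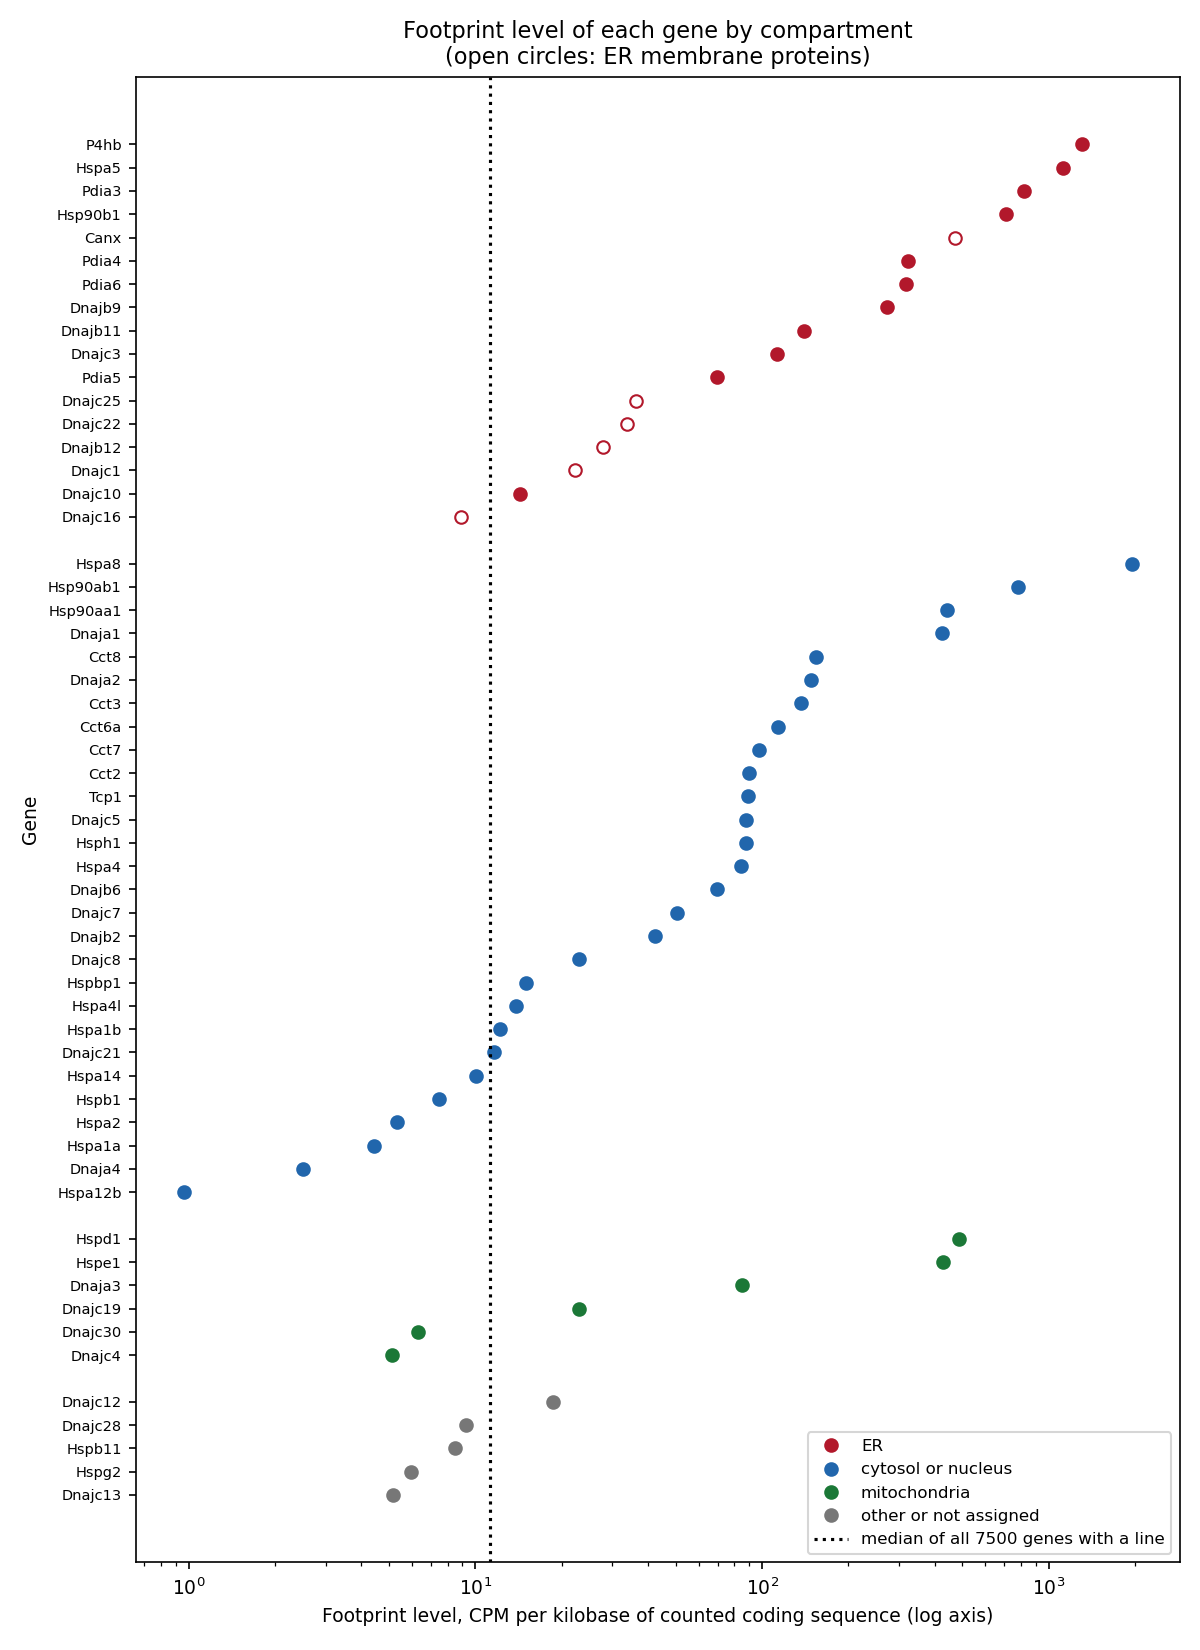
Footprint level of each of the 56 genes, as the authors' mean over all libraries in CPM per kilobase on a log axis, grouped by compartment, with ER membrane proteins as open circles and the median of all 7500 genes with a line (11.3) dotted. The ER column runs from P4hb at 1306 to Dnajc16 at 8.87, and Hspa8 at 1956 is the highest of all.

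Within the ER, lumenal and membrane proteins differed in their medians. The 11 lumenal genes had a median of 317 CPM per kilobase and all 11 were above the table median. The 6 membrane genes had a median of 30.8. Only 1 of them, Canx at 472 CPM per kilobase, was in the highest 10%. Canx encodes calnexin, the membrane-bound lectin that holds glycoproteins during folding. Its lumenal relative calreticulin (Calr), which is outside the symbol rule, stood at 2443 CPM per kilobase, 5.18 times Canx.

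Hspa5 (chromosome 2, 34627490 to 34632051, mm9) encodes BiP, the Hsp70 of the ER, and stood at 1123 CPM per kilobase, rank 88 of 7500. Hsp90b1 (chromosome 10, 86152954 to 86168254), which encodes the ER Hsp90 known as Grp94, stood at 710 CPM per kilobase. The nucleotide exchange factor Hyou1, a partner of BiP from the list of ER folding partners, was at 193 CPM per kilobase, so that Hspa5 exceeded it 5.83-fold. Albumin, the main cargo of the hepatocyte ER, had a footprint level 46.1 times that of Hspa5.

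The disulfide isomerases spanned an 18.7-fold range. P4hb (chromosome 11, 120421612 to 120434567), the classical protein disulfide isomerase and also the beta subunit of prolyl 4-hydroxylase, was the highest ER gene with 1306 CPM per kilobase. Pdia3, which encodes ERp57 and works with calnexin and calreticulin on glycoproteins, followed with 818. Pdia4 (ERp72) and Pdia6 (P5) lay at 324 and 317 CPM per kilobase, so that P4hb exceeded them 4.03-fold and 4.13-fold. Pdia5 was the lowest at 69.9 CPM per kilobase. The oxidase gene Ero1l, which recharges these enzymes, and the pancreas-type isomerase Pdia2 had no line and so no level here.

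On the scale of footprints not divided by length, few genes made up most of each compartment. In the ER, Hspa5, P4hb, Hsp90b1 and Pdia3 together held 72.8% of the summed CPM, and Hspa5 alone 22.5%. In the cytosol or nucleus, Hspa8, Hsp90ab1 and Hsp90aa1 held 71.4%, and Hspa8 alone 41.8%. In mitochondria Hspd1 alone held 76.9%.

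**Figure D2:**
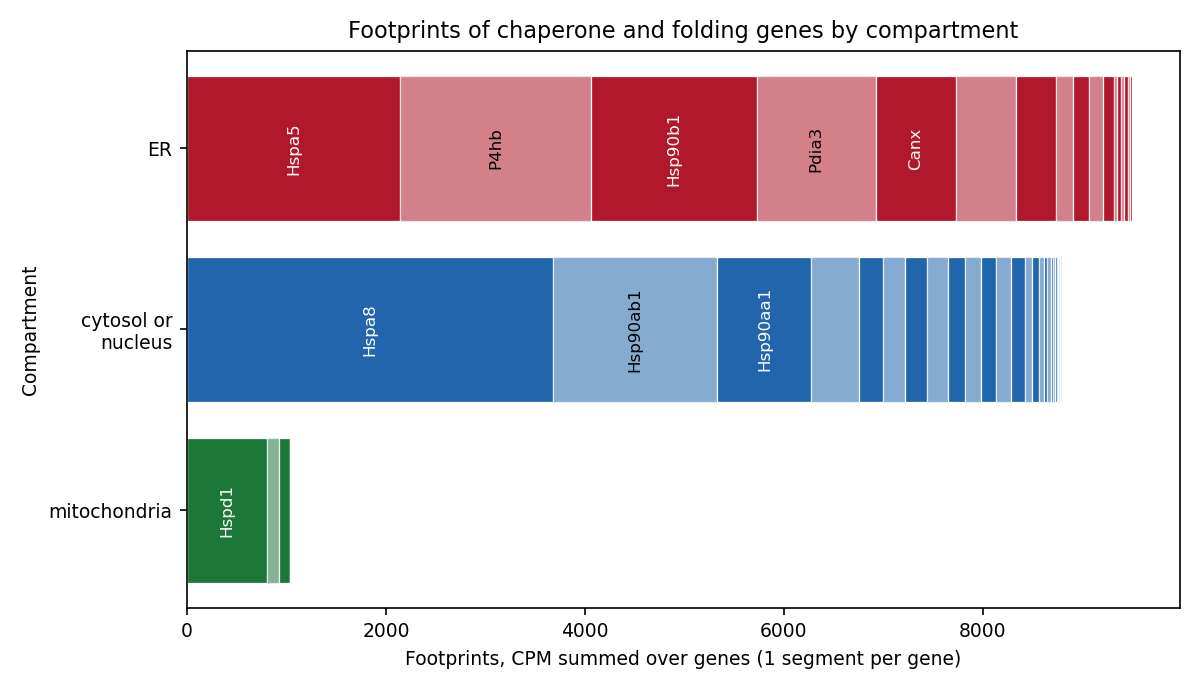
Authors' mean footprints summed over the genes of each compartment, in CPM, with 1 segment per gene ordered by size and the largest named. The ER bar reaches 9505 CPM and is shared by several large segments, the bar of the cytosol or nucleus reaches 8798 with Hspa8 as its largest segment, and the mitochondrial bar of 1048 is mostly Hspd1.

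In the cytosol, Hspa8 (chromosome 9, 40609067 to 40613283) had the highest footprint level of all 56 genes. It encodes Hsc70, the constitutive Hsp70, and stood at 1956 CPM per kilobase, rank 55 of 7500 and 1.74 times Hspa5. The stress-inducible Hsp70 genes Hspa1b and Hspa1a were listed at 12.1 and 4.44 CPM per kilobase. These 2 values are uncertain, because 88.4% and 91.1% of the 30-base windows of their counted coding sequence also occur in another gene, chiefly in each other, and only uniquely aligned reads were counted. Divided by the share of windows found in no other gene, the levels would be 104 and 50.1 CPM per kilobase, and Hspa8 would exceed Hspa1b 18.7-fold in place of 161-fold.

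The other Hsp70 genes were low. Hspa14, a ribosome-bound Hsp70 relative, stood at 10.03 CPM per kilobase, Hspa2, known for its role in spermatogenesis, at 5.34, and Hspa12b, known from endothelium, at 0.96, the lowest of all 56. The Hsp110 genes, whose products exchange nucleotide on Hsp70, were led by Hsph1 and Hspa4, at 87.8 and 84.6 CPM per kilobase, and Hspa4l was at 13.9. Hspa8 exceeded Hsph1 22.3-fold. The small heat shock gene Hspb1 was at 7.44 CPM per kilobase, below the table median.

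The 3 Hsp90 genes were all in the highest 10% and within a 1.77-fold range. Hsp90ab1, the constitutive cytosolic form, stood at 781 CPM per kilobase and the more inducible Hsp90aa1 at 442. Hsp90b1 of the ER lay between them at 710. Trap1, the mitochondrial Hsp90 from the partner list, was lower at 175 CPM per kilobase, and Hsp90ab1 exceeded it 4.47-fold. Hsp90aa1 shared 0.19% of its 30-base windows, letter for letter, with Hsp90ab1. Windows that differ by 1 or 2 bases were not counted, so the reads that unique alignment with mismatches left out of both genes were not measured.

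The cytosolic chaperonin, known as TRiC or CCT, is a double ring in which each ring holds 1 copy of each of 8 related subunits and which folds actin and tubulin. Of these subunits 6 had a line. Cct8 stood at 154 CPM per kilobase, Cct3 at 137, Cct6a at 114, Cct7 at 97.9, Cct2 at 90.3 and Tcp1 at 89.5. The highest exceeded the lowest 1.72-fold, where the 28 cytosolic or nuclear genes as a whole spanned 2036-fold, down to Hspa12b at 0.96. A range widens with the number of genes, so the 2 are not alike. The SD over genes of the log2 level was 0.33 for the 6 subunits and 2.57 for the 28 genes, which are of unlike families. The deposited length of Cct6a is shorter than annotated, and with the annotated length less 60 bases its level would be 104 CPM per kilobase. Cct4 and Cct5 had no line.

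The mitochondrial chaperonin is built of Hspd1 (Hsp60), which forms the barrel, and Hspe1 (Hsp10), which forms its lid. Their levels were 485 and 429 CPM per kilobase, a ratio of 1.13, although Hspd1 had 806 CPM and the far shorter Hspe1 107 CPM before division by length. Both were in the highest 10% of the table, at 3.16 times Cct8 for Hspd1. Hspa9, the mitochondrial Hsp70, had no line.

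**Figure D3:**
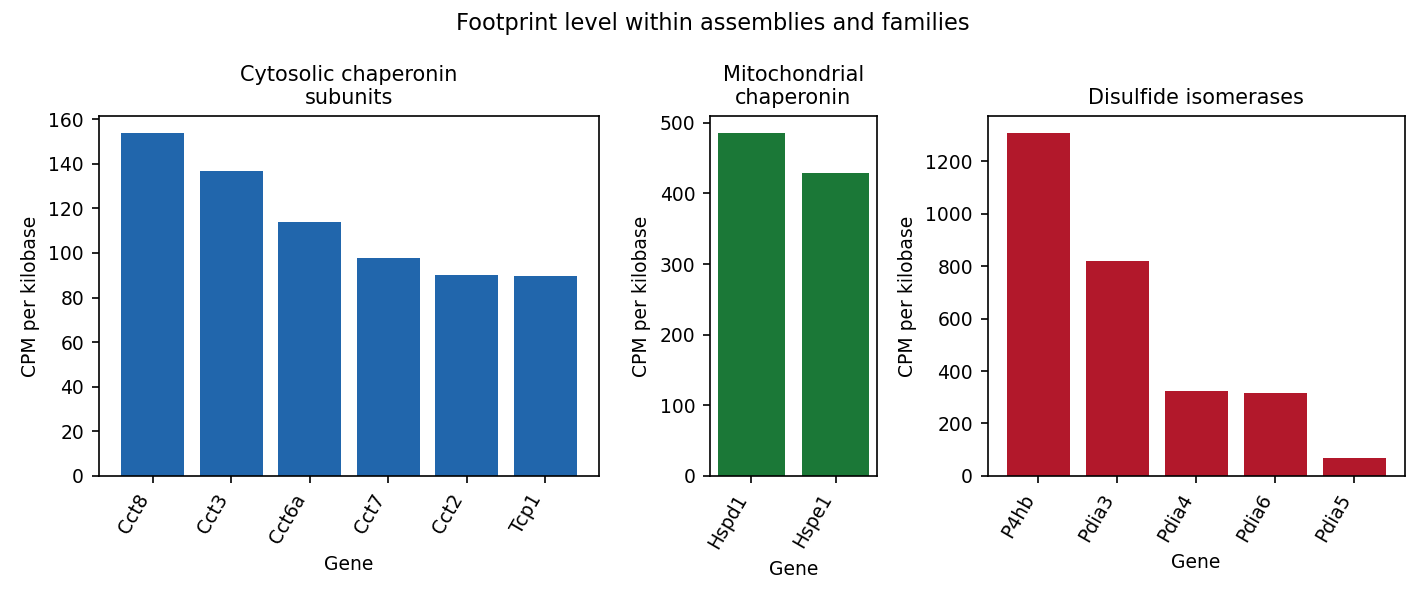
Footprint level in CPM per kilobase, as the authors' mean over all libraries, of 6 subunits of the cytosolic chaperonin, of both parts of the mitochondrial chaperonin and of 5 disulfide isomerases, each panel with its own axis from 0. The chaperonin subunits lie between 89.5 and 154, Hspd1 and Hspe1 at 485 and 429, and the disulfide isomerases fall from 1306 to 69.9.

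The 25 J protein genes had a median of 27.9 CPM per kilobase and spanned 169-fold. Dnaja1, a farnesylated cytosolic partner of Hsc70, was the highest at 423 CPM per kilobase, with Dnaja2 at 148. In the ER lumen Dnajb9 (ERdj4) stood at 272, Dnajb11 (ERdj3) at 140 and Dnajc3 (p58IPK) at 113 CPM per kilobase. Dnajc10 (ERdj5), which combines a J domain with thioredoxin domains and reduces disulfides, was far lower at 14.3. The ER membrane J proteins Dnajc25, Dnajc22, Dnajb12, Dnajc1 and Dnajc16 lay between 8.87 and 36.4 CPM per kilobase, with Dnajc16 the lowest and Dnajc1 at 22.2. Dnajc25 shares 25.8% of its windows with Gm20503, so its value is uncertain.

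Among the other cytosolic or nuclear J proteins, Dnajc5, the cysteine string protein, was at 88.0 CPM per kilobase and Dnajb6 at 69.6. Dnajc7, Dnajb2, Dnajc8 and Dnajc21 lay between 11.6 and 50.5, and Dnaja4 was the lowest at 2.50. The Hsp70 exchange factor Hspbp1 was at 14.99 CPM per kilobase. In mitochondria Dnaja3 (Tid1) stood at 85.3 CPM per kilobase, Dnajc19, a part of the inner membrane import motor, at 23.0, Dnajc30 at 6.29 and Dnajc4 at 5.098. Hspd1 exceeded Dnaja3 5.68-fold.

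Hsp70 and J proteins were also summed within a compartment. In the ER the level of Hspa5 was 1.68 times the sum of the 9 J protein genes with a line and 2.08 times that of the 4 lumenal ones. In the cytosol or nucleus the 6 Hsp70 genes together were at 2.32 times the sum of the 9 J protein genes. In both places the Hsp70 sum was the larger one. Genes with no line, Dnajb1 among them, are missing from these sums.

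The 5 genes left outside the compartments were low per length, from 5.16 to 18.6 CPM per kilobase. Dnajc12, a J protein known as a partner of the aromatic amino acid hydroxylases, was the highest, Dnajc28 stood at 9.28 and Hspb11, a part of the intraflagellar transport complex, at 8.51 CPM per kilobase. They also include Hspg2, which encodes perlecan, a basement membrane proteoglycan and no chaperone, at 5.98 CPM per kilobase, and Dnajc13, an endosomal protein, at 5.16.

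Partner genes from lists of co-chaperones were led by the ER, both in the median and in the highest gene, while the medians of cytosolic and mitochondrial partners lay close together. Of 32 ER folding partners 24 had a line, with a median of 71.5 CPM per kilobase and 21 above the table median, led by Calr at 2443, Manf at 518 and the prolyl isomerase gene Ppib at 317. Of 35 cytosolic co-chaperones 26 had a line, with a median of 46.4 CPM per kilobase and 24 above the table median, led by St13 (Hip) at 426, Ppia (cyclophilin A) at 420 and Ptges3 (p23) at 258. Of 15 mitochondrial partners 9 had a line, with a median of 51.6 CPM per kilobase and 8 above the table median, led by Grpel1 (the exchange factor of mitochondrial Hsp70) at 209, Trap1 at 175 and Clpp at 65.9.

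The promoters of the genes were searched for motifs that were not part of the symbol rule. The motifs were chosen from general knowledge of ER stress and heat shock genes. Their matches in such genes are therefore a description and no independent result. Promoter sequences, from 250 bases before to 50 after each RefSeq start, were given for 49 of the 56 genes, and each was found once in the mm9 genome. The ER stress element ERSE, searched as CCAAT and CCACG with any 9 bases between them on either strand, is known as a target of the unfolded protein response factors ATF6 and XBP1 together with NF-Y. It occurred in 5 of 16 ER genes (31.2%), in 0 of 24 cytosolic or nuclear genes and in 0 of 5 mitochondrial genes, and in 37 of all 27025 genes with a promoter (0.137%). The matches are printed 5′ to 3′ along the motif to show what the 5 genes have in common, with its fixed bases in capitals.

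Hspa5, chr2:34627545-34627563, plus strand: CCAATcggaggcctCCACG
Hsp90b1, chr10:86168278-86168296, plus strand: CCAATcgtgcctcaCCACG
Hsp90b1, chr10:86168383-86168401, minus strand: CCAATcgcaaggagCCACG
Pdia6, chr12:17273297-17273315, plus strand: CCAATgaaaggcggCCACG
Canx, chr11:50139302-50139320, minus strand: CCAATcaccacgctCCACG
Dnajc3, chr14:119337049-119337067, plus strand: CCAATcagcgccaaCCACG

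Their centres lay 56 to 203 bases upstream of the RefSeq start, nearest in Hspa5. The mm9 GENCODE annotation places all but the Hspa5 site between genes, and the Hspa5 site in an exon of a Hspa5 transcript that starts further upstream. The 5 genes had levels from 113 to 1123 CPM per kilobase with a median of 472. The 11 ER genes with a promoter and without this match ranged from 8.87 to 1306 with a median of 69.9, so both ranges overlap, and P4hb and Pdia3 were high without it. ERSE-II, searched as ATTGG and CCACG with any 1 base between them, occurred in 1 of 16 ER genes, Dnajb11, and in 12 of all 27025 genes (0.0444%), and overlapped no ERSE match.

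The heat shock element, HSE, searched as GAA, TTC and GAA with any 2 bases between neighbours on either strand, is the binding motif of heat shock factors. It occurred in 0 of 16 ER genes, in 2 of 24 cytosolic or nuclear genes (Dnajb6 and Hsph1), in 2 of 5 mitochondrial genes and in 179 of all 27025 genes (0.662%). The mitochondrial ones were Hspd1 (chromosome 1, 55134679 to 55145087, minus strand) and Hspe1 (chromosome 1, 55144976 to 55148151, plus strand), which are divergent neighbours whose annotated extents overlap by 112 bases. Whether these matches relate to the footprint levels was not tested. Both promoters hold the same pair of matches, printed to show what they share, with the fixed bases in capitals.

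Hspd1 and Hspe1, chr1:55144903-55144915, minus strand: GAAggTTCtaGAA
Hspd1 and Hspe1, chr1:55144908-55144920, plus strand: GAAccTTCcgGAA

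The 2 matches overlap each other and lie in the annotated UTR of a longer Hspd1 transcript and upstream of Hspe1. A match of letters is a description of the sequence and no measure of binding, and a promoter without a match lacks only these letters in this window.

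**Figure D4:**
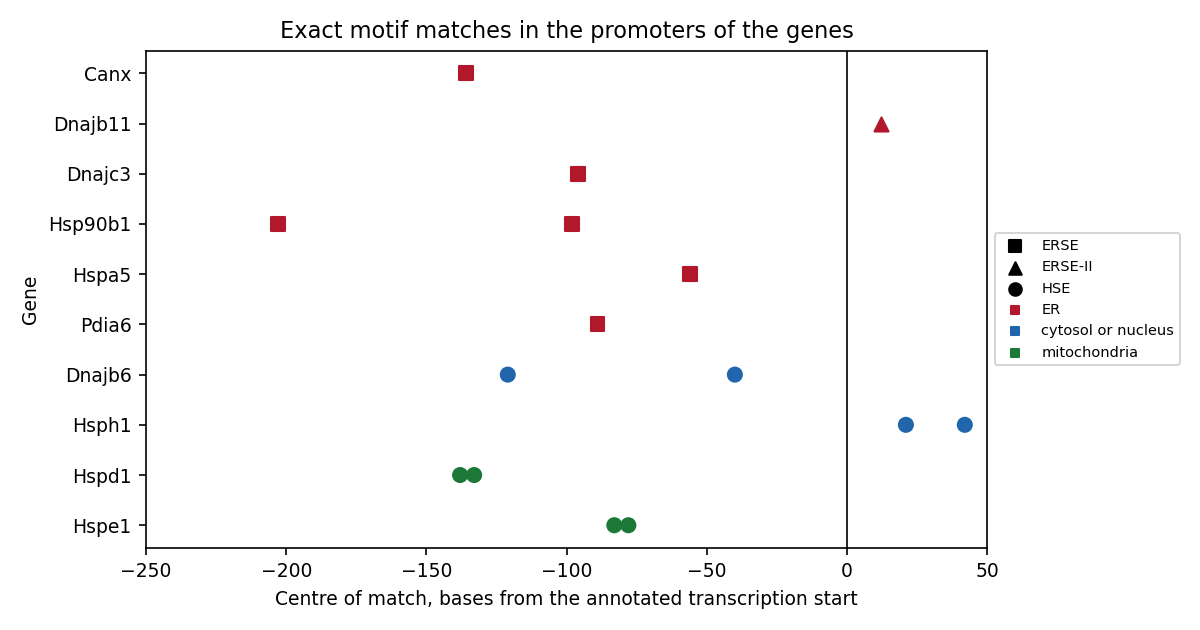
Centre of each exact motif match, in bases from the RefSeq transcription start (0), for the 10 genes with a match, with the marker shape for the motif and the colour for the compartment. ERSE and ERSE-II matches are in ER genes and HSE matches in cytosolic, nuclear or mitochondrial genes. Dnajb6 and Hsph1 have 2 points each because 1 site is seen from 2 start sites.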

How the data were processed

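Per the study's methods, the authors trimmed adapters, removed reads of ribosomal RNA with Bowtie, and counted reads that aligned uniquely, with up to 2 mismatches, on 1 RefSeq mRNA per gene, its longest isoform (mm9), without the first 15 and last 3 codons. The submitters' processing notes name Bowtie, edgeR and mm9, without versions. The deposited log2 CPM of each gene is the authors' mean over all 8 libraries, and it was raised to a linear CPM here. The other 4 columns of values hold the authors' own comparison of the diets (the fold change on a linear and a log2 scale, the p-value and the FDR) and were not used, so no test was run. The planned count test of the diets was not possible with a pooled column.

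The deposited length was 60 bases under an annotated GENCODE coding sequence in 7093 of 7260 matched genes (97.7%), and in 55 of the 56 genes described, so it was taken as the counted length. Levels per kilobase divide CPM by it. The share of 30-base windows found in another gene was counted by exact match on GENCODE transcripts of the same build, and was 0 for 48 of the 56 genes. Motifs were found by exact letters, and the search was tested on simulated sequences.

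Of 92 symbols placed in a compartment by hand, 36 had no line and are left out. The genes, compartments and lists were chosen with earlier results of these data known. Named with values were the 6 highest and 3 lowest genes of each compartment, all Hsp90, Hsp70, disulfide isomerase and chaperonin genes, and the 3 highest of each partner list, with other genes by range or in passing. Python 3.11.15 with pandas 2.3.3, numpy 2.4.6 and matplotlib 3.10.9 was used.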

Additional observations from a re-analysis of the deposited data

How the results depend on the processing

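A value was taken as moved when it changed by over 1.5-fold, since no spread between replicates was at hand. Of 54 alternative values, 45 moved less. Some of these could not move, because the setting changed no gene behind the value. Taking ER lumenal genes alone, for example, leaves the cytosolic and mitochondrial medians as they were. The annotated length of Cct6a likewise changes neither the highest nor the lowest chaperonin subunit. The count of 45 is therefore no measure of how stable the values are. With ER lumenal genes alone the ER median rose from a log2 level per kilobase of 7.13 to 8.31, and its difference from the cytosolic or nuclear median went from 0.87 to 2.04 and from the mitochondrial one from 1.66 to 2.84, which without scaling to length was 2.36. Without genes below a log2 CPM of 3 the mitochondrial median went from 5.47 to 7.58 (4 genes), which turned the ER median minus the mitochondrial one to -0.45 and the cytosolic or nuclear median minus the mitochondrial one from 0.79 to -1.12. Without its largest member the summed CPM fell from 8798 to 5119 in the cytosol or nucleus (without Hspa8) and from 1048 to 242 in mitochondria (without Hspd1). The ER median stayed above that of the cytosol or nucleus under each of the 8 alternatives run on it, none of which compared genes within a family. With the largest member left out of each, the summed CPM was 7362 in the ER (without Hspa5) and 5119 in the cytosol or nucleus. The 7362 was below the full cytosolic or nuclear sum of 8798, which keeps Hspa8. The spread of the chaperonin subunits stayed between 1.72-fold and 1.74-fold. The length plus 60 bases, the division by unshared windows and the annotated length of Cct6a were added after seeing the data.

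No paired analysis was possible because 1 deposited abundance per gene covers all mice and the mouse numbers are not shared between diets. Alternatives that need a value per library (other normalizations, filters and tests of counts, and each library left out in turn) were not run. Low abundances are the least certain, and the depth behind them is unknown.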
